A study of Mus musculus with 10 samples.

Results

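Txnip, its antisense transcript Gm15441, the related alpha-arrestin genes Arrdc1, Arrdc2, Arrdc3 and Arrdc4, and the transcription factor genes Mlxipl and Mlx were followed in RNA sequencing of cultured mouse hepatocytes. The 8 genes were found by gene name among 56748 genes of the count table, and all 8 were among the 14183 tested. They were selected on earlier results of the same comparison, in which Txnip and Gm15441 stood out, together with genes of related sequence or function. Their own differences between the groups are therefore given as descriptions, with no p-value.

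The hepatocytes were primary cells of wild-type mice, and 5 libraries came from each of 2 groups. Both groups received an overnight treatment with conditioned medium of adipocytes that had themselves been starved overnight. In the group Mttp_flox_CM the adipocytes derived from the stromal vascular cells of inguinal fat of male Mttp f/f mice, and in the group Mttp_KO_CM from A-Mttp-/- mice, whose adipocytes the labels call Mttp KO. All fat donors had eaten an obesogenic diet for 6 months, and the labels give n = 3 without saying whether this holds per genotype. Both sets of adipocytes had been differentiated with IBMX, insulin, dexamethasone, indomethacin and rosiglitazone, then kept in insulin and then in plain serum medium. The labels read here give neither the driver of the deletion nor the age of the animals. The hepatocytes carry no deletion, so their own Mttp level checks no label. Nothing states that the 5 libraries of a group were separate cultures or animals, and every p-value below covers the spread among these libraries alone, which could be purely technical.

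TXNIP, the thioredoxin-interacting protein, is an alpha-arrestin that binds reduced thioredoxin and promotes the removal of glucose transporters from the cell surface. Its gene is a classic target of the glucose-sensing pair MLXIPL (ChREBP) or MLXIP (MondoA) with their partner MLX, which bind paired E-box-like sites called carbohydrate response elements. Alpha-arrestins carry PPxY motifs that recruit ubiquitin ligases of the NEDD4 family to membrane proteins. Gm15441 is a liver long non-coding RNA transcribed from the strand opposite Txnip, known to be induced through PPARα and linked to lower Txnip in fasting liver.

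The window upstream of Txnip is shown because it holds the paired site, and that of Arrdc4 because this gene is the other alpha-arrestin known to answer to glucose through the same factors. The sequences are the 250 bases before the start of each gene (RefSeq, GRCm38.p6), Txnip at chr3:96557707-96557956 on the plus strand and Arrdc4 at chr7:68749239-68749488 on the minus strand, written 5′ to 3′. Capitals mark the paired motif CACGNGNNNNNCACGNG or the E-box CACGTG, both searched on both strands.
Txnip: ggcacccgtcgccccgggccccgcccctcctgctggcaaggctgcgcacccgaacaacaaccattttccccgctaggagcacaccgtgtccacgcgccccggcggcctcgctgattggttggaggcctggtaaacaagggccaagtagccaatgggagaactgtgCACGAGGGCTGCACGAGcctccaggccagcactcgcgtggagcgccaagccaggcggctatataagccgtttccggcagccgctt
Arrdc4: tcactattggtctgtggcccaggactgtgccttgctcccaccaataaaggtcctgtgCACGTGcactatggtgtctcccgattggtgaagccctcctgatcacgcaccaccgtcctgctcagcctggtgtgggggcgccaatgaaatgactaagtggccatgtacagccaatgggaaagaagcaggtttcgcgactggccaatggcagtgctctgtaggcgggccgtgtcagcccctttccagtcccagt

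The Txnip window held the pair as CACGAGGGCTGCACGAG, from 85 to 69 bases before the start. The letters of this motif were settled after the windows had been seen. A looser form searched first, CANNNGNNNNNCANNNG, matched the windows of Txnip, Mlx and Mlxipl and 11.6% of all windows, and the narrower form was matched by Txnip alone of the 8 genes. Of 32851 windows of all genes, 15 held the narrower form, or 0.0457%, and they belonged to 14 genes. Of these 14 genes 8 were tested. Beside Txnip, Irak1bp1 was called higher (log2 change 0.65, a call lost in 6 of 19 alternative analyses), Fem1b (-0.27), Nfkb2 (-0.25), Man2b2 (-0.22) and Fnip1 (-0.16) were called lower, and Rbbp4 (0.04) and A430005L14Rik (0.00) were not called by edgeR. The single E-box CACGTG lay 193 to 188 bases before the start of Arrdc4, 40 to 35 bases before that of Mlx and 98 to 93 bases before 1 of the Mlxipl starts. It was found in 6.02% of all windows. CCAAT, the letters bound by the factor NF-Y, occurred at 6 places of the Arrdc4 window and at 2 of the Txnip window, and 33.8% of all windows held it on either strand. The half-site AGGTCA of nuclear receptors matched no member's window and 14.0% of all windows. Windows were found for 7 of the 8 genes, all but Gm15441. A match describes letters only and shows no binding.

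Txnip (ENSMUSG00000038393) lies on chromosome 3 from 96465273 to 96469199 on the plus strand (GRCm39). Gm15441 (ENSMUSG00000074398), annotated as a lncRNA, spans all of it on the minus strand, from 96463071 to 96474117. In the GENCODE M21 annotation (GRCm38), exons of both genes share 606 bases in 2 blocks, which is 19.4% of the exonic bases of Txnip and 36.2% of those of Gm15441. The exon 2 of Gm15441 is shown because all of its 165 bases lie opposite coding sequence of Txnip exon 5, at chr3:96559678-96559842 (GRCm38, minus strand), and its reverse complement was found in the Txnip transcript.
Gm15441 exon 2: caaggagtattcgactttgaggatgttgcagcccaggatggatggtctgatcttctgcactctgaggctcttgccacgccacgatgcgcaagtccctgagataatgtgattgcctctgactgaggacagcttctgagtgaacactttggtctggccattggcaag

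**Figure D1:**
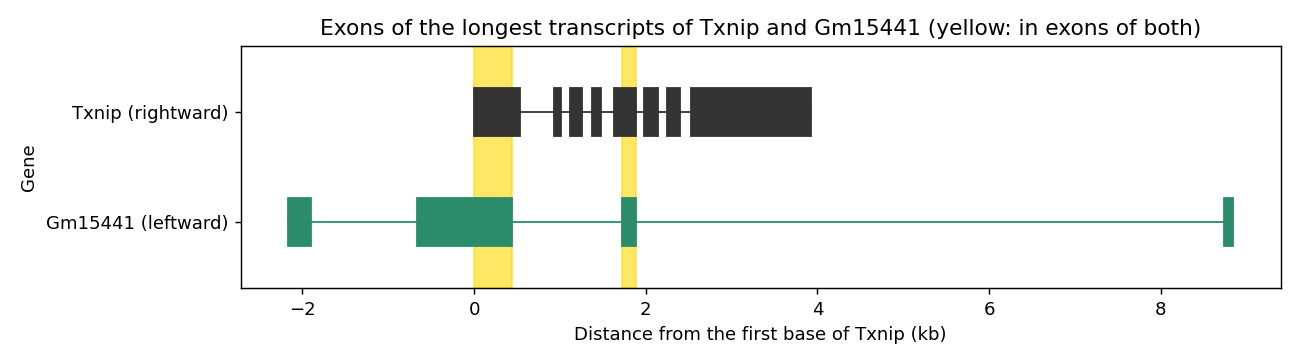
Exons of the longest annotated transcripts of Txnip and Gm15441 by distance from the first base of Txnip in kb, with boxes for exons, lines for introns and yellow bands for bases in exons of both. Parts of exons 1 and 5 of Txnip lie opposite Gm15441 exons, and its other exons do not.

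The second strand of the libraries was made with dTTP, per the labels, and no strand setting of the counting is given in the sources used here. Reads on the shared bases can therefore not be told apart between the genes, and the sources do not say which gene, if any, they were counted for. In Mttp_flox_CM, Gm15441 held 17 to 37 counts per library beside 1146 to 1559 of Txnip. At most 37 Txnip reads can thus have been counted for Gm15441 in any library of that group. At the density of its own counts, Gm15441 would place 541 counts on the shared bases in an average Mttp_KO_CM library, or 848 if none of its counts came from them. The mean count of Txnip differed by 2945 between the groups, which is larger than either value. The reverse case, Txnip reads counted for Gm15441 in Mttp_KO_CM, was not computed. The deposited length of Gm15441 is 2013 bases against 1676 in GENCODE M21, so the authors' annotation was another release and its shared part may differ.

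Txnip was about 3 times as abundant in hepatocytes given knockout medium. Levels here are CPM, the counts divided by the library size and put on a common scale, with library sizes adjusted by TMM, the trimmed mean of M values. Txnip stood at 80.0, 87.5, 85.3 and 96.8 CPM in Mttp_flox_CM replicates 1 to 4 and at 97.2 CPM in the unnumbered library, whose column carries a number that no label gives. In Mttp_KO_CM it stood at 274, 269, 277 and 290 CPM in replicates 1 to 4 and at 307 CPM in the unnumbered library. The groups did not overlap, and the lowest Mttp_KO_CM library was far above the highest Mttp_flox_CM library. The means were 89.3 ± 7.48 and 283 ± 15.3 CPM (SD, n = 5), a 3.17-fold difference (log2 1.67, SE 0.046, edgeR). In bulk libraries, fewer cells of a type and less RNA per cell cannot be told apart.

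Gm15441 was close to silent with floxed medium and became an abundant transcript with knockout medium. Its counts were 21, 24, 17 and 36 in Mttp_flox_CM replicates 1 to 4 and 37 in the unnumbered library. In Mttp_KO_CM they were 1671, 1546, 1593 and 1363 in replicates 1 to 4 and 1311 in the unnumbered library. Every library of the second group thus held far more counts than any of the first. The means were 1.78 ± 0.594 and 98.6 ± 10.1 CPM, a 55.3-fold difference (log2 5.79, SE 0.11). By fitted log2 change it ranked 2 of 14183 genes tested and 1 of 821 lncRNA genes. Among those lncRNA genes its mean CPM ranked 369 in Mttp_flox_CM and 11 in Mttp_KO_CM.

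The ratio of the antisense to the sense transcript changed with the group as well. Per length, Gm15441 stood at 3.04 ± 0.807% of the Txnip FPKM (fragments per length of transcript and sequencing depth, as deposited) in Mttp_flox_CM, between 1.92% and 4.03%. It stood at 54.2 ± 7.80% in Mttp_KO_CM, between 46.4% and 62.5%. Both lengths include the shared bases, which in GENCODE M21 are 36.2% of the exonic bases of Gm15441 and 19.4% of those of Txnip. If reads there were left uncounted, these percentages would be shifted. Within Mttp_flox_CM the libraries with the most Gm15441, replicate 4 and the unnumbered one, also had the most Txnip. Within Mttp_KO_CM the libraries with the most Gm15441, replicates 1 and 2, had the least Txnip, and they also had the most Mlxipl and the least Arrdc3. With 5 libraries a group, this order within groups was not tested.

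**Figure D2:**
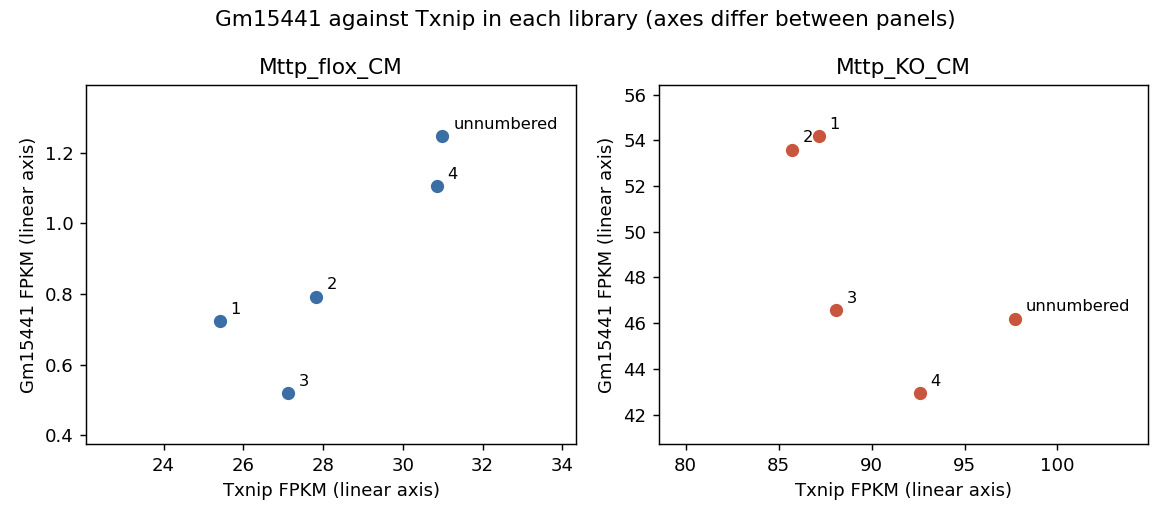
Deposited FPKM of Gm15441 against that of Txnip, 1 point per library with its replicate number, in Mttp_flox_CM (left) and Mttp_KO_CM (right), on linear axes that differ between the panels. Replicate 4 and the unnumbered library lie highest on both axes on the left, while replicates 1 and 2 on the right lie highest for Gm15441 and lowest for Txnip.

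Arrdc3 went the other way. Its protein is known for binding beta-adrenergic receptors and for effects on energy use in mice. It stood at 71.1, 71.9, 75.3 and 80.1 CPM in Mttp_flox_CM replicates 1 to 4 and at 82.9 CPM in the unnumbered library. In Mttp_KO_CM it stood at 51.2, 54.2, 59.0 and 60.5 CPM in replicates 1 to 4 and at 60.6 CPM in the unnumbered library. The groups did not overlap, with all Mttp_KO_CM libraries lower. The means were 76.2 ± 5.12 and 57.1 ± 4.20 CPM (log2 -0.42, SE 0.052), so that floxed medium gave 1.34 times the level of knockout medium. The lncRNA 1700023H06Rik, which overlaps Arrdc3 on the opposite strand, had at most 9 counts in any library.

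The other alpha-arrestins differed little. Arrdc4, the closest to Txnip in its known response to glucose, ranged from 12.0 to 13.9 CPM (median 13.1) in Mttp_flox_CM and from 13.5 to 15.4 CPM (median 14.5) in Mttp_KO_CM. The ranges overlapped, with 4 of 5 Mttp_KO_CM libraries above every Mttp_flox_CM library (log2 0.18, SE 0.076). Arrdc1, whose protein drives the budding of small vesicles from the plasma membrane, ranged from 10.8 to 12.6 CPM (median 11.3) and from 9.47 to 11.4 CPM (median 10.3). Here 4 of 5 Mttp_KO_CM libraries lay below every Mttp_flox_CM library (log2 -0.17, SE 0.086). Arrdc2 ranged from 7.19 to 9.06 CPM and from 7.82 to 8.63 CPM, so that its Mttp_KO_CM values lay inside the range of the other group (log2 0.02, SE 0.098). The sign of that value differed in 5 of 19 alternative analyses. Arrdc5 had counts in 1 library only, and the value there was 3.

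The makeup of the alpha-arrestin transcripts differed between the groups. Per length, Txnip made up 55.9 ± 1.38% of the summed FPKM of Txnip and Arrdc1 to Arrdc4 in Mttp_flox_CM and 82.4 ± 0.427% in Mttp_KO_CM. The summed FPKM of Arrdc1 to Arrdc4 was 22.4 ± 1.11 and 19.3 ± 1.04. Txnip stood at 8.98 ± 0.764 times the FPKM of Arrdc4 in Mttp_flox_CM and at 25.2 ± 1.15 times in Mttp_KO_CM.

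Mlxipl was slightly higher with knockout medium and Mlx was level. Mlxipl, the ChREBP gene that directs glycolytic and lipogenic genes in liver, stood at 151, 140, 157 and 139 CPM in Mttp_flox_CM replicates 1 to 4 and at 153 CPM in the unnumbered library. In Mttp_KO_CM it stood at 179, 181, 162 and 166 CPM in replicates 1 to 4 and at 163 CPM in the unnumbered library. The groups did not overlap, but the gap between them was small. The means were 148 ± 8.12 and 170 ± 9.07 CPM, a 1.15-fold difference (log2 0.20, SE 0.040). Mlx, the shared partner, ranged from 34.0 to 37.3 CPM (median 36.8) and from 35.3 to 38.5 CPM (median 36.8), with overlapping ranges (log2 0.04, SE 0.046). The 3′ end of Mlx overlaps Psmc3ip on the opposite strand, which had at most 32 counts in any library.

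By FPKM, the order of the 8 genes changed with the medium at Gm15441 alone. In Mttp_flox_CM it ran Txnip (28.4), Mlxipl (26.6), Mlx (17.9), Arrdc3 (12.1), Arrdc1 (4.61), Arrdc4 (3.17), Arrdc2 (2.48) and Gm15441 (0.878). Txnip and Mlxipl overlapped there, and no other neighbours did. In Mttp_KO_CM it ran Txnip (90.2), Gm15441 (48.7), Mlxipl (30.6), Mlx (18.4), Arrdc3 (9.06), Arrdc1 (4.10), Arrdc4 (3.59) and Arrdc2 (2.52). Arrdc1 and Arrdc4 were the only neighbours that overlapped in that group.

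**Figure D3:**
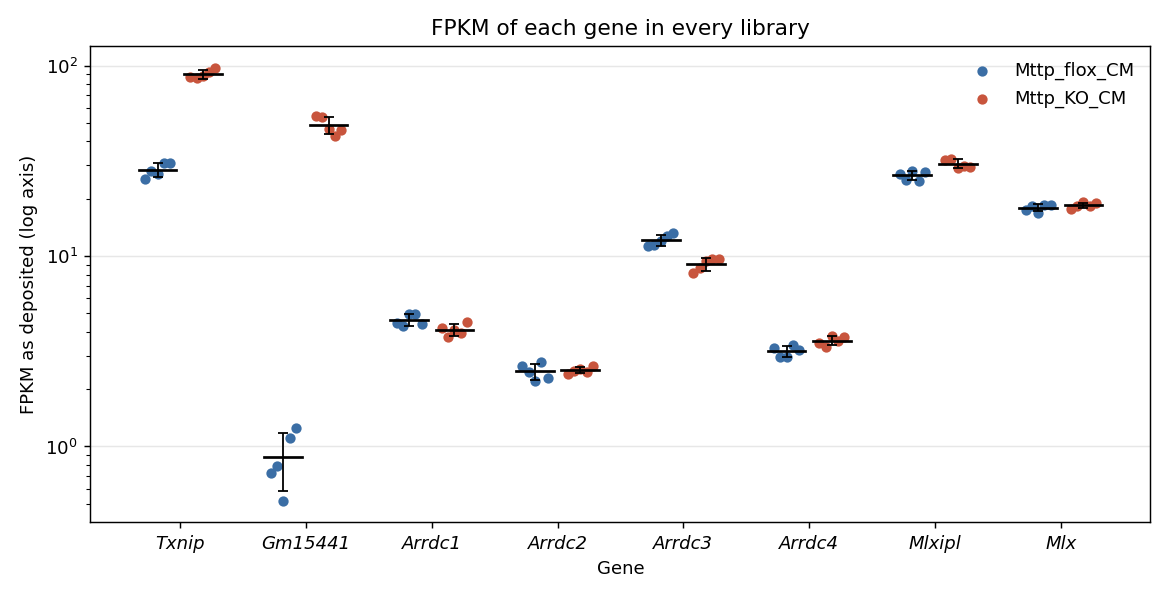
Deposited FPKM of the 8 genes on a log axis, with 1 point per library in Mttp_flox_CM (blue) and Mttp_KO_CM (red), and the mean with SD as black bars. Txnip, Gm15441, Arrdc3 and Mlxipl show separate groups, and the other genes overlap.

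Of the 8 genes, edgeR called 3 higher (Txnip, Gm15441 and Mlxipl) and 1 lower (Arrdc3) at an adjusted p under 0.05. Among all genes tested 36.4% were called, 18.2% higher and 18.1% lower. The CPM ranges did not overlap for 4 of the 8 and for 25.7% of all genes tested. Since the 8 genes were chosen with this comparison known, nothing is read from their count. Of all called genes 50.1% were higher under TMM scaling, against 38.1% where no scaling beyond the library size was used. The middle 90% of log2 changes over all genes tested lay between -0.62 and 0.42, and the absolute change had a median of 0.14. Txnip and Gm15441 lay above that band and the other 6 genes inside it.

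**Figure D4:**
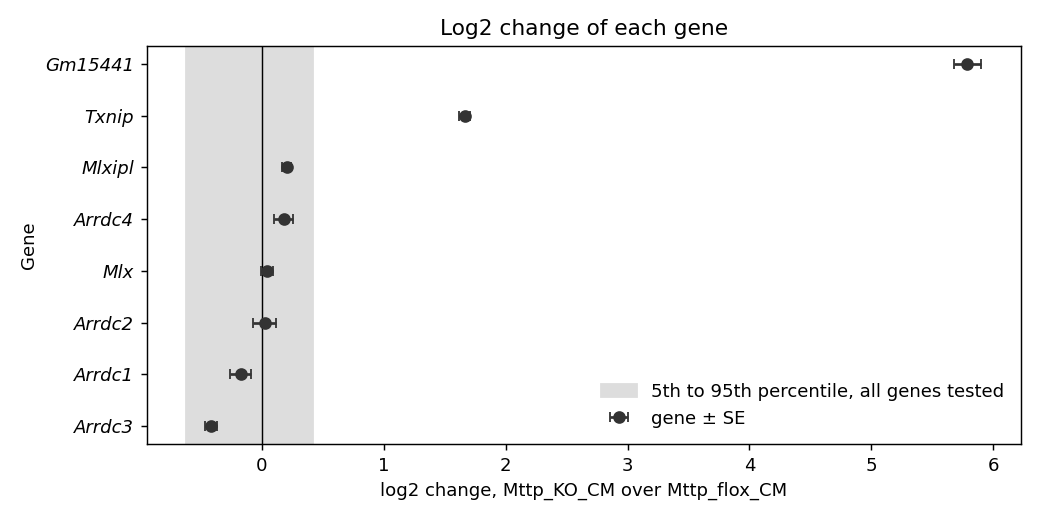
Log2 change of each of the 8 genes (Mttp_KO_CM over Mttp_flox_CM) with its SE, against a grey band from percentile 5 to percentile 95 of all genes tested. Gm15441 at 5.79 and Txnip at 1.67 lie beyond the band, and the other 6 genes lie within it.

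Among the 5 genes whose profile over the 10 libraries was nearest to Txnip, by the root mean square distance of centred log2 CPM, were Pex11a (0.085), 4633401B06Rik (0.12) and Acot4 (0.12). The distance from Txnip had a median of 0.85 over all genes. Pex11a, which acts in peroxisome division, went from 60.0 ± 3.35 to 204 ± 4.54 CPM (log2 1.77, SE 0.037). Nearest to Gm15441 were Acot3 (0.72), Acot1 (0.78), Gm49390 (1.02), Fabp1 (1.03) and Cyp4a14 (1.06), against a median of 2.94 over all genes. Acot1, an acyl-CoA thioesterase, went from 23.6 to 468 CPM. The difference between the groups enters every such distance. Acot3, Gm49390 and 4633401B06Rik had only 1 to 5, 2 to 12 and 10 to 12 counts per Mttp_flox_CM library. Counting noise therefore enters the distances of these genes as well.

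Markers checked the labelled cell type and the cells that could accompany it. A marker is counted as higher or lower if called by edgeR at an adjusted p under 0.05. Of all genes tested 18.2% were called higher and 18.1% lower. Summed counts ran from 14199798 to 17178131 per library. All 8 hepatocyte markers were expressed, with a summed level of 38220 to 39880 CPM in Mttp_flox_CM and 31600 to 32940 in Mttp_KO_CM, 6 of them lower and 2 higher. Alb made up most of that sum, at a mean of 29140 and 25100 CPM. All 8 endothelial markers were lower in Mttp_KO_CM (1585 to 1695 and 930 to 983 CPM summed), as were 6 of 8 stellate cell markers (81.6 to 89.5 and 46.6 to 51.7) and 7 of 8 macrophage markers (661 to 718 and 464 to 517), with 1 macrophage marker higher. Of 4 cholangiocyte markers 2 were lower (529 to 584 and 288 to 355 CPM summed). Most of this sum was the single gene Spp1, at a mean of 513 and 283 CPM. Adipocyte markers summed to less than 1 CPM in every library, with Lep and Cfd at 0, and the lymphocyte and neutrophil markers to 9.91 to 12.8 and 7.39 to 10.2 CPM, with Ly6g at 0. The part of these cells in the values of the 8 genes, or of the lists that follow, was not tested.

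Genes known as ChREBP targets were mostly higher. Of 21 tested, 14 rose and 4 fell, with a median log2 change of 0.30 against 0.00 over all genes tested. Of all genes tested 18.2% were called higher and 18.1% lower. Scd1, the stearoyl-CoA desaturase, stood at 643 ± 13.2 CPM in Mttp_flox_CM and 1690 ± 120 CPM in Mttp_KO_CM (log2 1.40, SE 0.036, edgeR adjusted p = 4.4e-20). Acacb, which makes the malonyl-CoA that restrains carnitine palmitoyltransferase, rose by 0.94, Klf10, a glucose-responsive repressor, by 0.84 and Elovl6, a fatty acid elongase, by 0.44. Several of these genes have other known regulators, PPARα and SREBP1 among them. Pklr, the liver pyruvate kinase and textbook ChREBP target, stood at 68.7 ± 3.83 and 73.5 ± 1.95 CPM and did not pass (log2 0.10, SE 0.042, edgeR adjusted p = 0.066). It passed in 3 of 19 alternative analyses. The 4 that fell were the glucose transporter Slc2a2 (log2 -0.81), Gckr (-0.37), the triokinase Tkfc (-0.26) and the clock-linked repressor Bhlhe40 (-0.22).

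In the network of factors around Mlx and Max, 5 of 12 genes fell and 1 rose, against 18.1% and 18.2% of all genes tested. The median log2 change was -0.01. Mlxip, the MondoA gene whose product also pairs with Mlx to drive Txnip, averaged 66.4 ± 2.50 CPM in Mttp_flox_CM and 47.6 ± 3.11 CPM in Mttp_KO_CM (log2 -0.48, SE 0.046, edgeR adjusted p = 6.5e-09). Per length, Mlxipl stood at 3.35 ± 0.126 times the FPKM of Mlxip in Mttp_flox_CM and at 5.38 ± 0.298 times in Mttp_KO_CM. Mxd4 and Mxd1, repressors that pair with Mlx or Max, fell by 0.50 and 0.60. Mxd3 (log2 0.19, SE 0.15) and Mxi1 (log2 0.08, SE 0.062), of the same repressor family, did not pass. Mycl fell by 0.69 and Mnt by 0.22. On log2 of FPKM plus 1 the log2 change of Mxd1 was -0.40 and the log2 change of Mycl was -0.43. Myc was the gene that rose, by 0.34. Without Mttp_KO_CM replicate 3 the count that rose was 2, with Usf2 added. With all libraries Max, Mga, Usf1 and Usf2 did not pass either, with log2 changes between -0.02 and 0.13.

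In the thioredoxin and peroxiredoxin system, whose thioredoxin TXNIP binds, 14 of 20 genes rose and 0 fell. Of all genes tested 18.2% rose and 18.1% fell. The median log2 change of the list was 0.22. Txn1, the cytosolic thioredoxin, averaged 418 ± 20.6 CPM in Mttp_flox_CM and 468 ± 16.2 CPM in Mttp_KO_CM, with overlapping ranges (log2 0.16, SE 0.032, edgeR adjusted p = 2.3e-04). Its reductase gene Txnrd1 rose by 0.29. The sulfiredoxin Srxn1 rose by 0.56, glutathione reductase Gsr by 0.47 and Prdx1 by 0.28. All 3 are also known targets of NRF2. Among mitochondrial members Txn2 rose by 0.23, Prdx3 by 0.17 and Glrx5 by 0.37. Txnrd2 (log2 0.01), Prdx5 (-0.0006) and Glrx2 (-0.07) did not pass. Srxn1 had the largest log2 change among the 20.

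Genes of the inflammasome and IL-1 family, to which TXNIP protein is linked through NLRP3, differed widely in level. Of 19 tested 7 fell and 2 rose, against 18.1% and 18.2% of all genes tested. The median log2 change was -0.23. Nlrp3 itself stood at 1.43 ± 0.363 and 1.22 ± 0.309 CPM and did not pass (log2 -0.24, SE 0.25, edgeR adjusted p = 0.49, with the log2 change of Nlrp3 between -0.40 and -0.16 when 1 library was left out), and neither did Casp1 (log2 -0.21, SE 0.11). Il1b was below the filter, with at most 4 counts in a library. Il1rn, the natural antagonist of the IL-1 receptor, averaged 27.4 ± 1.40 CPM in Mttp_flox_CM and 15.8 ± 1.36 CPM in Mttp_KO_CM (log2 -0.79, SE 0.065, edgeR adjusted p = 4.4e-10), Casp4 fell by 0.56, Il18bp by 0.37 and the receptor Il1r1 by 0.31. The genes that rose were Nlrp12 (log2 0.34) and Nek7 (0.21). Macrophage and endothelial markers, given above, were lower in the same libraries, and their part in this list was not tested.

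Both beta-arrestin genes, which share the arrestin fold, fell. Arrb1, which desensitises G protein-coupled receptors, averaged 45.7 ± 0.980 CPM in Mttp_flox_CM and 21.0 ± 1.18 CPM in Mttp_KO_CM (log2 -1.12, SE 0.048, edgeR adjusted p = 1.7e-15), and Arrb2 fell by 0.36. Of 5 genes tested in that list 2 fell and 1 rose, against 18.1% and 18.2% of all genes tested. The median log2 change was -0.03. The gene that rose was Vps26a, a retromer subunit (log2 0.08), which lost its call in 13 of 19 alternative analyses. Among the NEDD4-family ligases 4 of 8 fell and 0 rose, against the same shares of all genes tested. The median log2 change was -0.06. Hecw2 fell by 0.59, Nedd4l by 0.14 and Wwp2 by 0.13. Nedd4, the ligase of the list with the highest CPM, stood at 859 and 879 CPM and did not pass (log2 0.03). Wwp1, Smurf1 and Smurf2 did not pass either. On log2 of FPKM plus 1, which compresses low values, the log2 change of Hecw2 was -0.29. Itch, a ligase known to target TXNIP, stood at 94.7 ± 3.29 and 88.4 ± 2.43 CPM (log2 -0.10, SE 0.036, edgeR adjusted p = 0.032), and its call was lost in 10 of 19 alternatives. Without Mttp_KO_CM replicate 2, 2 ligases were called. Endothelial markers were lower in the same libraries, and their part in the fall of Arrb1 was not tested.

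Of 17 glucose uptake and energy-sensing genes 4 were higher and 1 lower, with a median log2 change of -0.04. Over all genes tested 18.2% were higher and 18.1% lower. Slc2a1, encoding the glucose transporter GLUT1 that TXNIP removes from the surface, averaged 96.2 ± 1.68 CPM in Mttp_flox_CM and 124 ± 4.78 CPM in Mttp_KO_CM (log2 0.37, SE 0.034, edgeR adjusted p = 5.0e-09). The AMP-activated kinase subunits Prkaa2 and Prkaa1 rose by 0.18 and 0.13, and Prkaa1 lost its call in 4 of 19 alternative analyses. The other subunits tested, Prkab1, Prkab2, Prkag1 and Prkag2, did not pass, with log2 changes between -0.04 and 0.08. Hk3, a hexokinase of leukocytes, fell by 0.28. The count that fell was 2 without Mttp_flox_CM replicate 1 and 3 without Mttp_KO_CM replicate 4. Foxo1, which can act on the Txnip promoter, stood at log2 -0.07 and Ddit4, a stress protein that binds TXNIP, at -0.10, and neither passed.

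Genes induced by glucocorticoids, which are also known to raise Txnip and Arrdc2, were mostly lower. Of 12 genes 8 fell and 1 rose, against 18.1% and 18.2% of all genes tested. The median log2 change was -0.27. Fkbp5, a chaperone and sensitive readout of the receptor, averaged 132 ± 2.40 CPM in Mttp_flox_CM and 94.9 ± 5.67 CPM in Mttp_KO_CM (log2 -0.48, SE 0.038, edgeR adjusted p = 2.9e-10). Tat, the tyrosine aminotransferase, fell by 0.97, Sgk1 by 0.40 and Dusp1 by 0.23. Errfi1, also called lower, had a log2 change of -0.07. Klf9 was the gene that rose, by 0.19. Per1 (log2 -0.05), Mt1 (-0.004) and Mt2 (-0.12) did not pass. Tat also stands among the hepatocyte markers, 6 of 8 of which were lower.

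**Figure D5:**
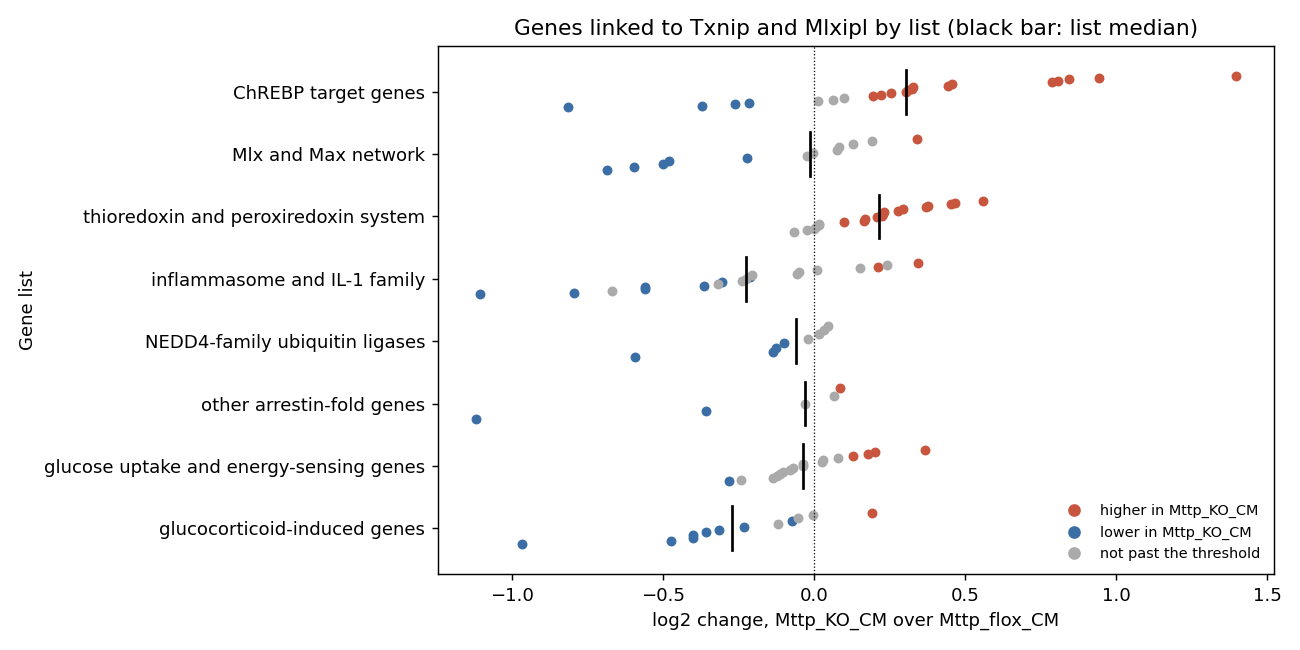
Log2 change (Mttp_KO_CM over Mttp_flox_CM) of every tested gene in 8 lists linked to Txnip and Mlxipl, coloured by call (edgeR adjusted p under 0.05), with the list median as a black bar. The ChREBP target and thioredoxin lists have medians of 0.30 and 0.22, and the glucocorticoid and inflammasome lists of -0.27 and -0.23.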

How the data were processed

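The authors deposited a table of read counts per gene and a table of FPKM values, 1 column per library. HISAT2 2.0.5, featureCounts 1.5.0-p3 and build GRCm39 are named in the submitters' processing notes. The deposited FPKM values imply library sizes of their own. Summed counts were 0.982 ± 0.00138 (SD, n = 5) of these sizes in Mttp_flox_CM and 1.01 ± 0.00375 in Mttp_KO_CM. For CPM, TMM multiplied library sizes by 1.011 to 1.0158 in Mttp_flox_CM and by 0.98204 to 0.99258 in Mttp_KO_CM. The scaling between groups was thus similar in FPKM and CPM. Fold changes between groups rest on CPM.

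Columns matched labels for 8 libraries. The other 2, 1 per group, were placed by their letter. Genes passed edgeR's filterByExpr (minimum count 10, total 15) and were tested with TMM scaling and glmQLFTest (edgeR 4.0.16, R 4.3.3) over all 10 libraries, with Benjamini-Hochberg adjustment over all 14183 genes. Printed SEs are approximate, the log2 change over the root of the F statistic. The script was tested on simulated data. The members and gene lists were chosen with earlier results of these data known. Named genes were the 8 members, up to 4 called genes per list with the smallest p, defining genes of each list, 5 nearest profiles for Txnip and for Gm15441, and overlapping genes. The paired promoter motif and other genes named in the text were chosen after their values were seen. Some genes that the rule names are not reported here. Promoter windows came from RefSeq and exons from GENCODE M21. Alternatives included DESeq2 1.42.0, limma 3.58.1 on log2 of FPKM plus 1 or 0.1, other scalings and filters, and leaving out libraries.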

Additional observations from a re-analysis of the deposited data

How the results depend on the processing

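Counts of genes and log2 changes were recomputed under 19 alternatives, or 18 for Acot3, Nlrp3, 4633401B06Rik and Gm49390, and FPKM ratios, distances and marker sums were not. Other named genes whose log2 change was over 1.5 times smaller on log2 of FPKM plus 1 included Irak1bp1, Nlrp3, Acot3, 4633401B06Rik and Gm49390. Txnip ranged from 1.62 to 1.69 on the log2 scale, Arrdc3 from -0.46 to -0.38, Arrdc4 from 0.14 to 0.20, Arrdc1 from -0.23 to -0.14, Mlxipl from 0.16 to 0.23 and Mlx from 0.00 to 0.06. Gm15441 ranged from 5.64 to 5.96 under 18 of them and was 4.73 on log2 of FPKM plus 1, which compresses its low values in Mttp_flox_CM. Arrdc2 ranged from -0.03 to 0.06. Genes higher and lower numbered 2305 to 2491 and 2411 to 2521 with 1 library left out, 2264 and 2307 without the unnumbered libraries, and 1982 and 3217 with library size alone. With 1 library left out, the called NEDD4-family ligases, all lower, numbered 2 to 4, higher Mlx and Max network genes 1 to 2, lower glucose uptake genes 1 to 3 and higher arrestin-fold genes 0 to 1. Lower glucose uptake genes numbered 3 with library size alone, 2 without a filter and 2 with the replicate block. Higher arrestin-fold genes (Vps26a) numbered 0 with library size alone, 0 without a filter, 0 at 1 CPM or more in every library, 0 without the unnumbered libraries and 0 with the replicate block. The causes were not tested. Every other count of a list stayed within 1.5 times. The deviations of same-numbered libraries, replicates 1 to 4 of each group, correlated at 0.021, -0.0090, -0.0045 and 0.065. Counting noise of low genes enters these values, so they cannot exclude a pairing by replicate number. With a replicate block on these 8 libraries 2326 genes were higher and 2325 lower, the log2 change of Txnip was 1.67 and the log2 change of Gm15441 was 5.95. About 17 to 37 counts of Gm15441 per Mttp_flox_CM library limit the precision of its fold change.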
